A study of Mus musculus with 6 samples.

Results

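The secondary and tertiary granule genes described here are Ltf, Camp, Ngp, Lcn2, Mmp8, Mmp9, Mmp25, Retnlg, Chil3 and Cd177, 10 of 29347 genes with any estimated read. They were chosen by name as genes of neutrophil granule proteins, with earlier results of these data known. The value of each gene was the sum of its transcripts in each library. All 10 were among the 16656 genes that passed the filter on low counts. The RNA came from spleens of tumor-bearing mice in which CD11b+Gr1+ cells were purified by flow cytometry. Every mouse carried the Mll-AF9 fusion, a leukemia oncogene knocked into its own locus, on a C57BL/6 background, and the groups differed in the ribosomal protein gene Rpl22. The Rpl22+/+ group and the Rpl22-/- group, a germline null, each held 3 libraries. The study's methods describe its mice in general as young adults, and the age at which the tumor-bearing mice behind these libraries were taken was not given in the sources used here. The labels tie no library to an animal of its own, and a legend of the study names a single mouse of each genotype for the RNA-seq. If the 3 libraries of a genotype came from that mouse, genotype and mouse cannot be told apart. The p-values below therefore measure the spread between libraries, which may be technical. The comparison asks how loss of Rpl22 changes these granule transcripts in leukemic myeloid cells.

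Neutrophils load their granules in waves as they mature. Primary (azurophilic) granules are filled in promyelocytes with myeloperoxidase and serine proteases. Secondary (specific) granules follow in myelocytes and metamyelocytes with lactoferrin, cathelicidin, lipocalin and the collagenase Mmp8, and tertiary (gelatinase) granules follow later with the gelatinase Mmp9. Transcription of the secondary genes depends on C/EBP epsilon. The Gr1 antibody used for such sorts binds Ly6G, a marker of maturing neutrophils, and also Ly6C, so that the gate takes in neutrophils and Ly6C-high myeloid cells. In sorted bulk RNA, fewer cells of a type and less RNA per cell cannot be told apart.

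RefSeq promoter sequence on GRCm38.p6 was matched for 9 of the 10 genes, and there was no entry for Mmp9. The 150 bases before the start are shown for 4 of them: Ltf and Mmp8, 2 of the genes with a C/EBP-type match in these bases, Mmp25, with the largest fall, and Cd177, with one of the smallest. Each reads 5′ to 3′ on the gene's own strand, and the capitals mark a match to TTGCNNAA (C/EBP type) or GAGGAA (PU.1 core) on either strand. The windows are chr9:111019142-111019291 on the plus strand for Ltf, chr9:7558279-7558428 on the plus strand for Mmp8, chr17:23645270-23645419 on the minus strand for Mmp25 and chr7:24760312-24760461 on the minus strand for Cd177.
Ltf: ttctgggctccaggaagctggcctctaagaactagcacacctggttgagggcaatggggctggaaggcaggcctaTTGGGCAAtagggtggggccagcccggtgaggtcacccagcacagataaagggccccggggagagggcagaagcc
Mmp8: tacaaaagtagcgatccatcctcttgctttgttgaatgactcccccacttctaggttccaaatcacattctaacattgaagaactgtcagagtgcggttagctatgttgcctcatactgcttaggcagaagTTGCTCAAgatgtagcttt
Mmp25: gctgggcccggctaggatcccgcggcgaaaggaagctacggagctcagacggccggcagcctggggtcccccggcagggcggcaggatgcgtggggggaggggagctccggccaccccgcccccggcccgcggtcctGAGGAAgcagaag
Cd177: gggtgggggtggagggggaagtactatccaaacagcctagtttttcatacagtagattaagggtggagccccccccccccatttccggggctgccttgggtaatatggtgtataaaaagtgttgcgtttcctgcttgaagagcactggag

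The Ltf match, TTGGGCAA, began 75 bases before the start and the Mmp8 match, TTGCTCAA, began 19 bases before it. Ngp, whose window is not printed, had such matches beginning 138 and 11 bases before its start. Over the full windows of 300 bases (250 before the start and 50 after it), TTGCNNAA was found in 5 of the 9 promoters (Lcn2, Ltf, Mmp8, Ngp and Retnlg), compared with 10.8% of all 32851 promoters. GAGGAA was found in 5 of 9 (Cd177, Lcn2, Ltf, Mmp25 and Mmp8), compared with 28.3% of all promoters, and TATAAA in 3 of 9 (Cd177, Chil3 and Mmp8), compared with 13.6%. Both strands were searched, a base could count for more than 1 motif, and the motifs and the printed windows were picked after results were seen. These matches are descriptions of letters in a window. The Rpl22-/- falls of the 5 genes with TTGCNNAA ranged from -1.38 (log2, Lcn2) to -4.09 (Retnlg), and Mmp25, which fell furthest, had no such match in its window.

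Before the members are described, the libraries are summarised. They held 35828500 to 102866127 estimated reads, and the shallowest was Rpl22-/- replicate 1. Rpl22 itself averaged 647 ± 72.6 TPM (a length-corrected share of each library's transcripts; SD, n = 3) in Rpl22+/+ and 283 ± 46.0 TPM in Rpl22-/- (edgeR's quasi-likelihood test, log2 fold change -1.27, adjusted p = 0.0106). The Rpl22-/- libraries thus kept reads on the gene and fell in the direction of their label. Rpl22+/+ replicate 2 stood apart from the others of its genotype at Ptprc, the CD45 gene, with 37.4 TPM beside 355 and 323 TPM. On TPM it was the lowest of that genotype for 5 of the 10 granule genes, Mmp8 and Retnlg among them, and the highest for the other 5. Results without it stand in the closing section.

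Loss of Rpl22 went with lower levels of nearly the whole group. A gene was called when its Benjamini-Hochberg adjusted p from edgeR's quasi-likelihood test was under 0.05 and its fold over 2. By that rule 8 of the 10 genes were lower in Rpl22-/-, and 0 were higher. Over all genes tested, 8.54% were called lower and 8.93% higher. The 10 genes were chosen with earlier results of these data known, so the shares over all genes are given for scale only. On the adjusted p alone 9 of the 10 were lower, compared with 13.8% of all genes. On CPM (counts scaled by library size and the TMM composition factor), every Rpl22-/- library lay below every Rpl22+/+ library for 10 of 10 genes. The groups were separated in this way for 22.2% of all genes. The median log2 fold change was -2.06 for the 10 genes and 0.07 for all genes tested. Together the 10 genes held 6.03% ± 0.14 (SD, n = 3) of all TPM in Rpl22+/+ and 2.29% ± 0.39 in Rpl22-/-. The plot of levels by library shows each of these values.

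**Figure D1:**
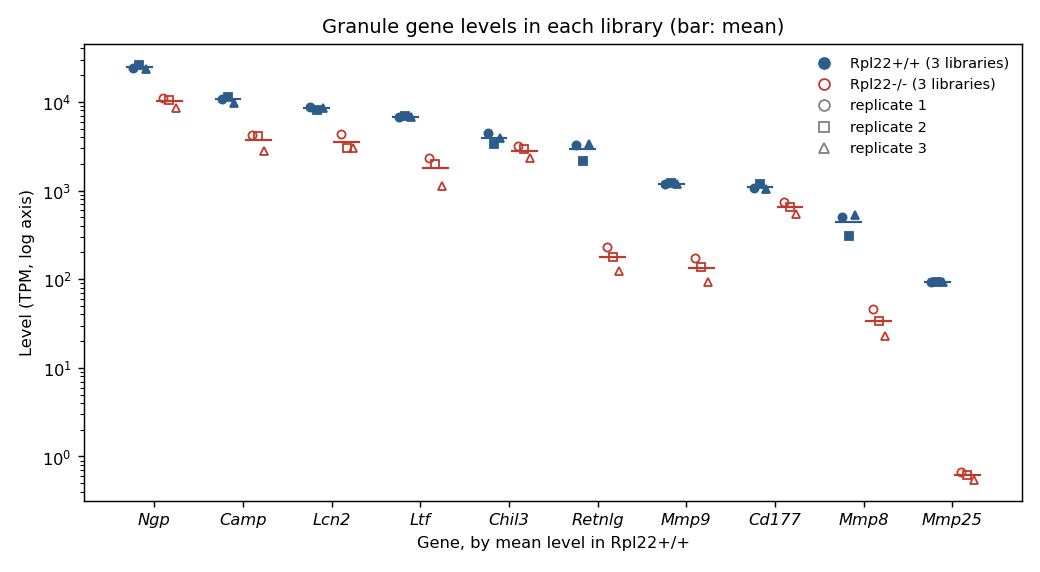
Level of each granule gene in each library, in TPM on a log axis, with genes ordered by their mean in Rpl22+/+. Filled blue points are the 3 Rpl22+/+ libraries, open red points the 3 Rpl22-/- libraries, and short bars are means. The gap between the genotypes is narrow at Chil3 and Cd177 and widest at Mmp25, which stood near 92 TPM in Rpl22+/+ and under 1 TPM in Rpl22-/-.

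Among the secondary granule genes, Ngp, Camp, Lcn2 and Ltf were the 4 most abundant members in Rpl22+/+, and all 4 fell. Ngp, which encodes a cystatin-like granule protein, had the highest level in both genotypes. It measured 24166, 26219 and 23631 TPM in Rpl22+/+ replicates 1, 2 and 3, and 11126, 10546 and 8620 TPM in Rpl22-/- replicates 1, 2 and 3. The groups were well separated, and Ngp fell by 1.40 on the log2 scale (SE 0.23, edgeR adjusted p = 0.0056). Camp encodes the cathelicidin precursor, an antimicrobial peptide. It measured 10847, 11354 and 9761 TPM in Rpl22+/+ and 4282, 4140 and 2789 TPM in Rpl22-/-. The lowest Rpl22+/+ library was thus above the highest Rpl22-/- library, and the log2 fold change was -1.61 (SE 0.26, edgeR adjusted p = 0.0051). Lcn2, encoding a lipocalin that withholds iron by binding bacterial siderophores, measured 8748, 8159 and 8492 TPM in Rpl22+/+ and 4391, 3015 and 3043 TPM in Rpl22-/-. It fell by 1.38 (log2; SE 0.20, edgeR adjusted p = 0.0031), with replicate 1 the highest of the Rpl22-/- libraries.

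Ltf encodes the iron-binding protein lactoferrin. Its levels were 6816, 6878 and 6674 TPM in Rpl22+/+ and 2345, 1982 and 1126 TPM in Rpl22-/-. The Rpl22+/+ libraries lay close together, whereas Rpl22-/- replicate 3 sat well below the other two. On counts the log2 fold change was -2.52 (SE 0.29, edgeR adjusted p = 0.0013). On TPM the fall was smaller, at -1.97 with limma on log2(TPM + 1).

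This gap between scales goes with a shift in which Ltf transcripts the reads were assigned to. The full-length coding transcript Ltf-201, of 2743 bases, held 71.7% ± 1.4 (SD, n = 3) of the gene's TPM in Rpl22+/+ and 49.3% ± 3.9 in Rpl22-/-. Ltf-211, a transcript of 373 bases annotated as subject to nonsense-mediated decay and covering exons 13 to 16, held 11.0% ± 1.9 in Rpl22+/+ and 33.8% ± 0.68 in Rpl22-/-. Ltf-207, of the same annotated class but covering exons 4 to 10, held 9.85% ± 0.44 in Rpl22+/+ and was listed at 0 in every Rpl22-/- library. The shares did not overlap between genotypes for any of these transcripts. Ltf-204, which spans exons 1 to 4, held 5.18% in Rpl22+/+ and 0.04% in Rpl22-/-, and Ltf-205, which spans exons 15 to 17, held 0.17% and 8.10%. The transcripts annotated as retaining an intron had higher mean shares in Rpl22-/- at each position, with Ltf-208 (exons 14 to 16) at 0.80% and 6.08%, Ltf-206 (exons 10 and 11) at 0.72% and 1.86%, and Ltf-212 (exons 7 and 8) at 0.15% and 0.56%. Ltf-209, which runs from exon 1 to exon 16, held 0.19% and 0.21%. By TPM, Ltf-201 averaged 4870 ± 171 in Rpl22+/+ and 880 ± 250 in Rpl22-/-, 5.54 times lower, compared with 3.74 times for the whole gene. Ltf-207 and Ltf-211 share all of their bases with the exons of Ltf-201. Ltf-204, Ltf-205, Ltf-208 and Ltf-209 share 78.9% to 99.8%, whereas Ltf-206 shares 39.9% and Ltf-212 51.5%. The split between these transcripts is thus an estimate of the quantification, and the transcripts were singled out after their values were seen. Uneven coverage along the gene and a change in the transcripts made cannot be told apart in these files.

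**Figure D2:**
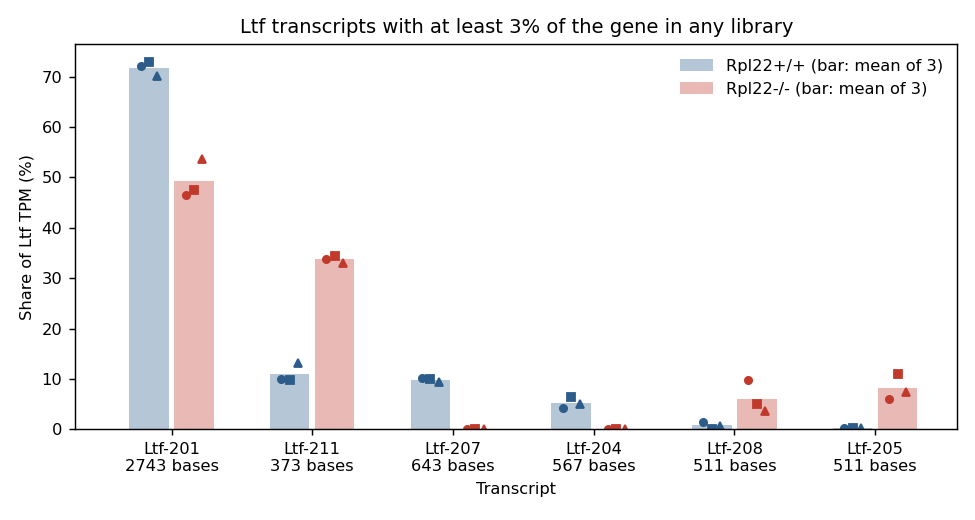
Share of the Ltf TPM given to each transcript holding at least 3% in any library, in percent; bars are means of 3 libraries, points are libraries, blue is Rpl22+/+ and red is Rpl22-/-. Ltf-201 fell from 71.7% to 49.3% while Ltf-211 went from 11.0% to 33.8%, and Ltf-207 was listed at 0 in Rpl22-/-.

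The matrix metalloproteinases, which degrade extracellular matrix, all fell. Mmp8, neutrophil collagenase and a secondary granule enzyme, measured 508, 305 and 526 TPM in Rpl22+/+ and 46.1, 33.6 and 22.7 TPM in Rpl22-/-. Even the lowest Rpl22+/+ library, replicate 2, was far above all Rpl22-/- libraries, and the log2 fold change was -3.79 (SE 0.29, edgeR adjusted p = 0.00033). Mmp9, gelatinase B and the defining enzyme of tertiary granules, measured 1181, 1212 and 1172 TPM in Rpl22+/+ and 176, 138 and 92.5 TPM in Rpl22-/-. It was 10.3-fold lower, a log2 fold change of -3.36 (SE 0.26, edgeR adjusted p = 0.00033).

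Mmp25, which encodes a membrane-anchored metalloproteinase of leukocytes, changed the most of the 10. It measured 93.1, 91.9 and 92.4 TPM in Rpl22+/+ and 0.67, 0.62 and 0.54 TPM in Rpl22-/-. Both groups were tight, and the log2 fold change was -7.32 (SE 0.22, edgeR adjusted p = 1.8e-05), which is 160.2-fold. The Rpl22-/- libraries still held 79.1, 227 and 181 estimated reads on Mmp25, compared with 20871, 27768 and 22600 in Rpl22+/+. With log2(TPM + 1) the fall was -5.86, since the added 1 exceeds the Rpl22-/- level.

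Retnlg, which encodes a resistin-like protein of neutrophils, showed the second largest change. It measured 3255, 2174 and 3334 TPM in Rpl22+/+ and 230, 180 and 125 TPM in Rpl22-/-. The lower Rpl22+/+ replicate 2 did not bring the groups near each other, and the log2 fold change was -4.09 (SE 0.26, edgeR adjusted p = 0.00016).

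Chil3 and Cd177 were not called. Chil3, encoding the chitinase-like lectin Ym1, measured 4480, 3368 and 3935 TPM in Rpl22+/+ and 3170, 2933 and 2349 TPM in Rpl22-/-. The groups came close without overlapping, and the log2 fold change of -0.58 (SE 0.18) had an edgeR adjusted p of 0.0517, or 0.0347 with the replicate number as a block. Chil4, a close relative in sequence, averaged 1.01 and 1.08 TPM, and how reads were divided between the pair was not tested. Cd177, encoding a membrane glycoprotein held in specific granules and at the cell surface, measured 1063, 1184 and 1053 TPM in Rpl22+/+ and 737, 656 and 543 TPM in Rpl22-/-. Its log2 fold change of -0.90 (SE 0.22, edgeR adjusted p = 0.0225) passed on the adjusted p but not on the fold. Without Rpl22+/+ replicate 1 the fold of Cd177 passed 2 and it was called (adjusted p = 0.0391), whereas without Rpl22+/+ replicate 3, Rpl22-/- replicate 1 or Rpl22-/- replicate 3 the adjusted p was 0.0532, 0.0673 and 0.0896.

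**Figure D3:**
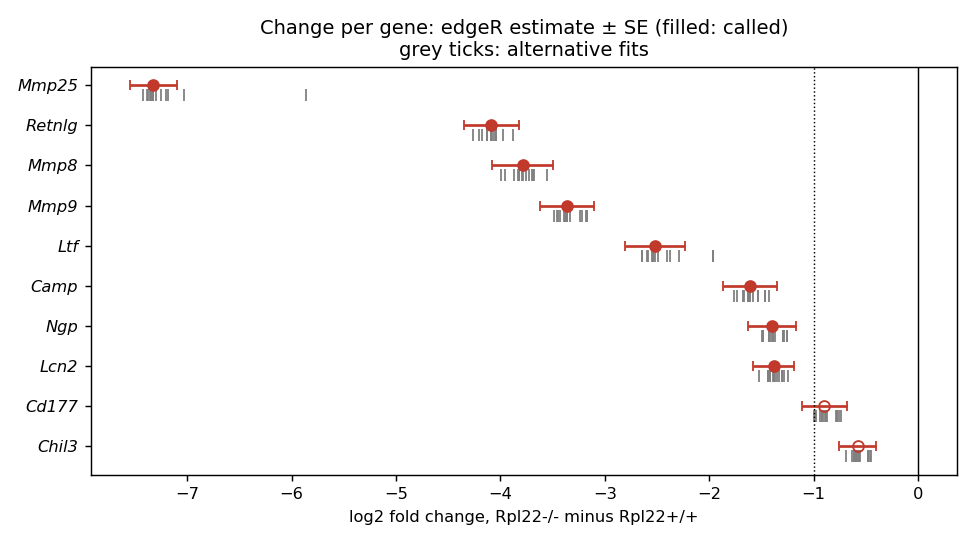
The log2 fold change of each granule gene, Rpl22-/- minus Rpl22+/+, with edgeR's estimate and standard error in red (filled if called) and the 15 alternative fits as grey ticks below it. The dotted line marks a fold of 2. All estimates lie left of 0, from -0.58 at Chil3 to -7.32 at Mmp25.

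The order of levels changed with genotype. In Rpl22+/+ the order by mean TPM was Ngp, Camp, Lcn2, Ltf, Chil3, Retnlg, Mmp9, Cd177, Mmp8 and Mmp25, and only Mmp9 and Cd177 overlapped their neighbour in that order. In Rpl22-/- Chil3 stood above Ltf, and Cd177 above Retnlg and Mmp9. The neighbours Camp and Lcn2, Lcn2 and Chil3, and Retnlg and Mmp9 overlapped there. The ratio of Ngp to Mmp9 levels was 20.2 to 21.6 in Rpl22+/+ and 63.4 to 93.2 in Rpl22-/-, which did not overlap. Among the Rpl22-/- libraries replicate 1 had the highest TPM for all 10 genes and replicate 3 the lowest for 9 of 10, Lcn2 being the exception. On CPM replicate 1 was the highest for 5 and replicate 2 for the other 5, and replicate 3 was the lowest for 10 of 10.

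The members lie on 6 chromosomes. Coordinates in the deposited table are GRCm39. Of the 4 on chromosome 9, Camp (109676447 to 109678685, minus strand), Ngp (110248815 to 110252080, plus strand) and Ltf (110848339 to 110871835, plus strand) fall within 1.2 Mb, and Mmp8 (7558457 to 7568486, plus strand) lies far from them. Among tested genes that had a mean of 50 counts or more and a place in the deposited table, the median log2 fold change of the 659 on chromosome 9 was 0.34, and that of the 734 on chromosome 4 was 0.43, compared with -0.08 to 0.08 on the other autosomes. The 4 members on chromosome 9 fell against a chromosome whose median was raised, and the part of that median in their values was not tested.

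Other genes of the same granules moved mostly the same way, and their lists were also chosen with earlier results of these data known. Of 23 further specific and gelatinase granule genes listed, 20 were tested, of which 11 were called lower and 1 higher, with a median of -1.11. The shares of all genes tested were 8.54% lower and 8.93% higher. Orm1, an acute-phase protein, averaged 44.4 ± 6.7 TPM in Rpl22+/+ and 7.70 ± 0.70 TPM in Rpl22-/- (log2 -2.61, edgeR adjusted p = 8.4e-05). Adam8, a membrane protease, went from 173 to 32.2 TPM (-2.51, edgeR adjusted p = 0.00024) and Slc11a1, a metal transporter of phagosome membranes, from 37.1 to 11.4 TPM (-1.97, edgeR adjusted p = 0.00041). The gene called higher was Fcnb, a ficolin of the lectin complement pathway, which rose from 269 ± 18.3 to 926 ± 81.1 TPM (1.69, edgeR adjusted p = 0.0014). Of 30 other late neutrophil genes, 17 were called lower and 0 higher, with a median of -1.29. The 3 of smallest p among them were Hdc, histidine decarboxylase (273 to 1.78 TPM, -7.39, edgeR adjusted p = 5.1e-05), Cd300ld, a myeloid receptor (19.9 to 2.56 TPM, -3.06, edgeR adjusted p = 5.5e-05), and Stfa3, a cystatin of the stefin A family (4347 to 13.5 TPM, -8.38, edgeR adjusted p = 6.1e-05). Stfa3 has near-identical copies among which reads may be split.

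Of 16 primary granule genes tested, 8 were called higher, 2 were called lower and 6 were not called, with a median of 0.65. Of all genes tested, 8.93% were called higher and 8.54% lower. Elane, neutrophil elastase, rose from 1006 ± 143 to 12175 ± 1233 TPM (log2 3.48, edgeR adjusted p = 0.00033). Ctsg, cathepsin G, rose from 317 to 2504 TPM (2.87, edgeR adjusted p = 0.00038) and Srgn, the proteoglycan that packs granule proteases, from 552 to 2910 TPM (2.33, edgeR adjusted p = 0.00015). The 2 called lower were Cst7, a cystatin (-3.13, edgeR adjusted p = 0.00038), and Ctsc, which activates the granule serine proteases (-1.60, edgeR adjusted p = 0.0015). Sgsh and Lamp1, both of lysosomes, also passed on the adjusted p with folds under 2 (-0.76 and -0.85, edgeR adjusted p = 0.0347 and 0.0455). The ratio of Elane to Ltf levels was 0.135 to 0.170 in Rpl22+/+ and 5.67 to 9.65 in Rpl22-/-.

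**Figure D4:**
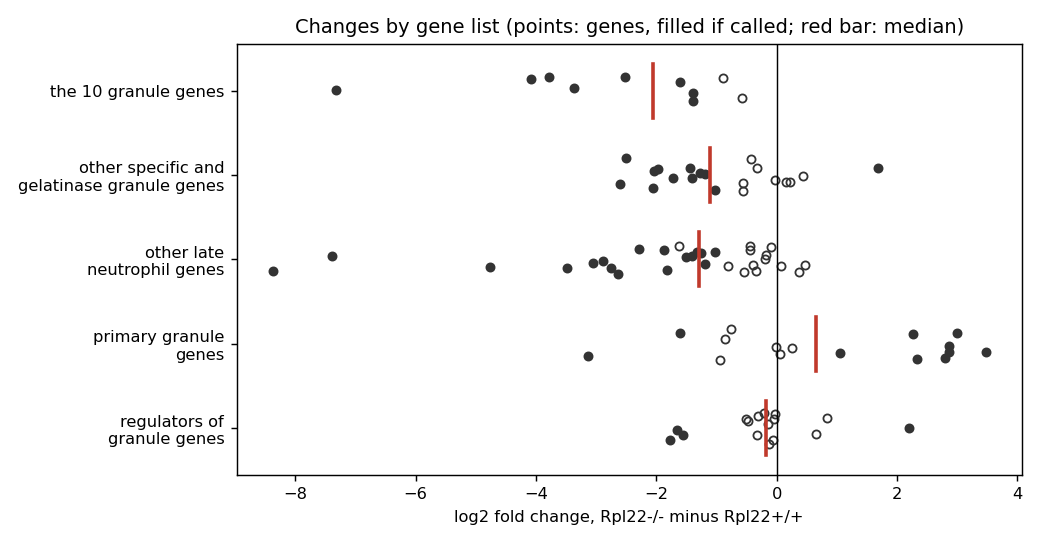
The log2 fold change, Rpl22-/- minus Rpl22+/+, of the tested genes in 5 lists, filled where called, with the list's median as a red bar. The medians are -2.06 for the 10 granule genes, -1.11 for other specific and gelatinase granule genes, -1.29 for other late neutrophil genes, 0.65 for primary granule genes and -0.18 for regulators.

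Of 16 tested genes listed here as regulators, 1 was called higher and 3 lower, beside 8.93% and 8.54% of all genes tested. Not every listed gene is an established regulator of granule genes. Cebpe, which encodes C/EBP epsilon, measured 223 ± 19.4 TPM in Rpl22+/+ and 237 ± 8.6 TPM in Rpl22-/-, a log2 fold change of -0.02 (SE 0.19, edgeR adjusted p = 0.948). Gfi1, a repressor needed for neutrophil maturation, rose from 36.6 ± 2.0 to 176 ± 16.4 TPM (2.20, edgeR adjusted p = 0.00019). Klf5, a zinc finger factor (-1.78), Rara, the retinoic acid receptor alpha (-1.66), and Lef1, a Wnt pathway factor (-1.56, at about 1 TPM), fell with edgeR adjusted p of 0.00041, 0.0018 and 0.0082. The 12 not called were Cebpe, Cebpa (0.83), Cebpb (-0.05), Cebpd (-0.06), Cebpg (-0.31), Cebpz (0.65), Spi1 (-0.47), Klf4 (-0.13), Runx1 (-0.33), Irf8 (-0.50), Cux1 (-0.21) and Stat3 (-0.14).

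Partners and inhibitors of the granule proteins were also measured. Of 12 tested, 8 were called lower and 2 higher, beside 8.54% and 8.93% of all genes tested. The list shares Elane, Itgam, Itgb2, Prtn3 and Fpr2 with lists above. Timp2, an inhibitor of metalloproteinases, fell with the enzymes, from 47.8 to 22.2 TPM (log2 -1.42, edgeR adjusted p = 0.0022), and so did Reck, a membrane inhibitor of them (10.8 to 1.35 TPM, -3.12, edgeR adjusted p = 6.1e-05). Timp1, the main inhibitor of Mmp9, was at 0.22 and 0.15 TPM and was not tested. Itgam and Itgb2, which pair as the CD11b/CD18 integrin stored in these granules, fell by 1.02 and 1.44 (log2; edgeR adjusted p = 0.0048 and 0.0046). Fpr2, a chemoattractant receptor that binds cathelicidin, fell by 1.26 (edgeR adjusted p = 0.0035), and Slc22a17, the lipocalin receptor, by 1.16 at about 1 TPM (edgeR adjusted p = 0.0173). Prtn3, proteinase 3, which Cd177 can hold at the cell surface, rose from 1012 to 7872 TPM (2.86, edgeR adjusted p = 0.00071).

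The sorted cells carried the markers of their gate in both genotypes, at different levels. Of 7 sorted cell markers tested, 4 were called lower in Rpl22-/-, 0 higher and 3 were not called, with a median log2 fold change of -1.02. The shares of all genes tested were 8.54% lower and 8.93% higher. Ly6g went from 249 ± 11.9 TPM in Rpl22+/+ to 23.7 ± 4.5 TPM in Rpl22-/- (log2 -3.49, edgeR adjusted p = 9.7e-05), with Itgam at 537 and 281 TPM. Ly6c2, the other antigen of the Gr1 antibody, was at 1903 ± 250 and 2900 ± 355 TPM (0.51, edgeR adjusted p = 0.180). Markers of other cell types moved as well. The summed TPM of 8 erythroid markers was 249 to 287 in Rpl22+/+ and 1684 to 3068 in Rpl22-/-, with 7 called higher. That of 13 monocyte and macrophage markers was 971 to 1173 and 460 to 638, with 4 called lower and 4 higher. That of 7 B cell markers was 526 to 678 and 370 to 483, with 0 called. That of 9 T and NK cell markers was 63.1 to 73.7 and 261 to 344, with 3 called higher and 5 lower; Nkg7 alone was at 27.9 to 37.2 TPM in Rpl22+/+ and 245 to 327 TPM in Rpl22-/-. The 9 eosinophil markers summed to 33.5 to 48.7 and 14.3 to 17.5 TPM, with 2 called lower and 0 higher. The 8 basophil and mast cell markers summed to 20.2 to 35.3 and 18.5 to 28.8 TPM, with 3 called lower and 1 higher. The 6 platelet and megakaryocyte markers summed to 3.67 to 4.88 and 5.07 to 5.30 TPM, with 0 called. The 6 stroma markers summed to 23.6 to 26.4 and 33.4 to 39.1 TPM. Of the stroma sum, Pecam1, which leukocytes also express, held 22.4 to 25.1 TPM in Rpl22+/+ and 32.8 to 37.5 TPM in Rpl22-/- and was not called, whereas Pdgfrb was the 1 stroma marker called, and lower, with 257 estimated reads over the Rpl22+/+ libraries and 0 in Rpl22-/-. The part of these markers in the granule gene values was not tested.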

How the data were processed

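Poly(A) RNA of 6 libraries, 3 per genotype, was sequenced from a stranded mRNA kit. Per the labels, the authors used Trimmomatic for trimming and Salmon for quantification, with GRCm39 named as the build; the versions and transcript set are not given in the sources used here. The deposited per-library files hold estimated counts and TPM per transcript. A deposited table of the authors' own comparison (fold changes and p-values) was used only for coordinates. Of 276623 transcripts listed, 136036 (49.2%) matched a GENCODE vM21 identifier and were summed to genes, which kept 98.0 to 98.1% of reads; other transcripts were not used here. Depth was 35828500 to 102866127 estimated reads per library, and the libraries of a genotype differed by more than sampling noise.

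Summed estimated counts were rounded and tested with edgeR 4.0.16 (R 4.3.3) after TMM scaling and filterByExpr, with genotype as the only term and Benjamini-Hochberg adjustment over 16656 genes. Standard errors are those implied by the F statistic. The scripts were tested on simulated data. Alternatives were DESeq2 1.42.0, its size factors, no composition factor, no filter, limma 3.58.1 (voom, and log2(TPM + 1) or log2(TPM + 0.1) on genes of mean TPM at least 1), a replicate block, a test against a fold of 2, and each library left out. Genes named are all members, of each other list up to 3 called genes of smallest p per direction, every tested regulator, and set partners; Chil4, Ptprc, Ly6c2, Pecam1, Sgsh, Lamp1, the transcripts of Ltf and the chromosome medians were picked after their values were seen. Members and lists were chosen with earlier results of these data known.

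Replicate numbers are shared between genotypes in the labels. Deviations of same-numbered libraries correlated at 0.57, 0.71 and 0.13 over 13202 genes whose mean reached 50 counts, so every same-numbered pair was above 0.1 and the numbers count as pairing the libraries. The values reported come from the fit without the block, and the blocked value is given beside a gene where it crosses the threshold on the adjusted p. Over the same genes Rpl22+/+ replicate 3 correlated more with Rpl22-/- replicate 1 (0.43) than with its own number, and over all 16656 tested genes the third correlation was 0.097, so the pairing is borderline.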

Additional observations from a re-analysis of the deposited data

How the results depend on the processing

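Under the 15 alternatives, 0 of the 10 granule genes changed direction and 0 were called higher. The number called lower was 8 in the main analysis, 5 in the test against a minimum fold of 2, where Camp, Ngp and Lcn2 were no longer called, and 8 to 9 in the others, leave-one-out included. Chil3 was called in 0 of 15 and passed on the adjusted p in 6, and Cd177 was called in 1 and passed in 11. With the replicate block the number called lower was 8, and among the 10 genes the block moved only the adjusted p of Chil3 across 0.05 (to 0.0347). It moved the other late neutrophil genes called from 17 to 18 and the family members from 4 to 5. Without Rpl22+/+ replicate 2, the library that stood apart, 8 were called. Over all genes, 1423 were called lower and 1488 higher. The lower count was 684 with limma on log2(TPM + 1), 805 with log2(TPM + 0.1) and 613 with the minimum fold, and the higher count was 889 with log2(TPM + 1) and 692 with the minimum fold. Leaving out 1 library gave 1177 to 1723 lower and 1031 to 1708 higher. With no composition factor the median of all genes moved from 0.07 to 0.19 (log2), and 1210 genes were called lower and 1792 higher, 8 of the 10 granule genes among the lower; with DESeq2 size factors 1491 were lower and 1434 higher. The cause of these shifts was not tested beyond what each alternative sets. With 3 libraries a genotype, the precision rests on the spread between libraries.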

Other observations

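Relatives of the granule genes were mostly at low levels. Of 30 family members listed (other metalloproteinases, chitinase-like, resistin-like, transferrin-type, lipocalin and Ly6 proteins), 14 were tested, 2 were called higher and 2 lower, beside 8.93% and 8.54% of all genes tested, with a median log2 fold change of -0.10, and 22 were under 1 TPM in every library. Chit1, the chitinase chitotriosidase, measured 1.42, 1.62 and 1.201 TPM in Rpl22+/+ and 15.5, 13.6 and 11.2 TPM in Rpl22-/-, a log2 fold change of 3.12 (edgeR adjusted p = 0.00043). Mmp28, the metalloproteinase epilysin, measured 2.00, 2.47 and 2.24 TPM in Rpl22+/+ and 14.6, 13.7 and 13.7 TPM in Rpl22-/-, a log2 fold change of 2.58 (edgeR adjusted p = 0.00045). Both thus rose where Mmp8, Mmp9 and Mmp25 fell. Chil5 fell from 22.9 ± 5.8 to 5.66 ± 2.3 TPM (-2.18, edgeR adjusted p = 0.0021), and Mmp15 fell (-2.55, edgeR adjusted p = 0.0159) at levels under 1 TPM. Chil1, the most abundant tested relative of Chil3, was at 375 ± 7.7 and 334 ± 56.9 TPM (-0.47, edgeR adjusted p = 0.0922).

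Transcripts annotated as not protein coding held more of Ltf in Rpl22-/- than in Rpl22+/+ (38.4% to 47.2% of the gene's TPM, compared with 20.1% to 24.2%). Most of the rise was in Ltf-211 near the 3′ end (11.0% to 33.8%), while Ltf-207, also not protein coding and further 5′, went from 9.85% to 0, and coverage along the gene cannot be told apart from transcript use. For Lcn2 the ranges were 1.73% to 3.82% in Rpl22-/- and 0.66% to 1.12% in Rpl22+/+, which do not overlap either. For Mmp9 the ranges were 8.23% to 22.4% and 6.002% to 11.0%, which overlap, and for Mmp25 15.3% to 34.1% and 23.0% to 24.3%. Camp, Ngp, Mmp8 and Retnlg have a single transcript in the annotation used, so no such shift could be seen in them.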
